A study of Bos grunniens and Bos grunniens x Bos taurus with 6 samples.

Results

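The genes described here carry out the oxidation of pyruvate, of acetyl groups and of branched-chain amino acids in mitochondria, with the transaminases that tie the cycle to amino acids. They were listed by name from known pathway roles, though with earlier results of these data known. Each was represented by the gene identifier with most pooled reads among the transcripts that carried its symbol. Of 38 genes listed, 36 were found by symbol and 35 had at least 30 pooled reads and were tested, out of 10397 genes tested and 31044 in the table. Pyruvate made by glycolysis enters mitochondria through a carrier, and the pyruvate dehydrogenase complex turns it into acetyl-CoA. The citrate cycle oxidises that acetyl group and feeds reduced cofactors to the respiratory chain, which makes it central to the aerobic work of muscle. Skeletal muscle is also a main site of the first steps of leucine, isoleucine and valine breakdown, whose carbon ends in acetyl-CoA and succinyl-CoA.

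The study compared a back muscle, longissimus dorsi, of cattle-yak with that of yak. Cattle-yak (labelled Bos grunniens x Bos taurus) are hybrids of yak and cattle, and the yak are Bos grunniens, with 3 libraries in each group. RNA was read as full-length cDNA on nanopores, and the values are read counts per transcript, summed here by gene. The sources used here do not give sex, age, feeding, the direction of the cross or whether each library is a separate animal, so the p-values measure only the spread among libraries, which may be technical.

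The cattle-yak libraries held 2366057 to 2769106 counted reads and the yak libraries 2350851 to 2502603. Levels are given as CPM, counts relative to the library's depth, here after TMM scaling, and the tested members had 36 to 25829 pooled reads each (median 1482). Counting error alone is therefore small for most members and large for the few rarest. A fold change is log2 of cattle-yak over yak, with its standard error (SE, n = 3 each), and a gene rose or fell where the edgeR quasi-likelihood test gave a Benjamini-Hochberg adjusted p under 0.05 over all genes tested. The labelled tissue was checked against 10 skeletal muscle markers, which fell on 9 gene identifiers and summed to 125270 to 142810 CPM in cattle-yak, against 191350 to 211320 CPM in yak. Of these 9, ACTA1, MB, ATP2A1 and the identifier shared by MYH1 and MYH2 fell, and DES rose. In the gene called ACTA1 (70963 ± 9613 CPM in cattle-yak, 114770 ± 12522 CPM in yak, SD, n = 3 each) 1.57% of the reads lay in transcripts of that name, in that of MYH1 and MYH2 26.7 and 53.8% and in DES 61.2%, so these values are uncertain. The macrophage markers summed to 35.2 to 73.4 CPM in cattle-yak, against 15.0 to 25.7 CPM in yak (2 of 4 tested rose), and the fibroblast markers to 221 to 410 CPM, against 434 to 545 CPM (3 of 5 fell). The Schwann cell markers summed to 212 to 304 CPM in cattle-yak, against 104 to 136 CPM in yak (1 of 3 rose), and the erythroid ones to 0.359 to 2.32 CPM, against 2.70 to 25.1 CPM (both tested fell, ALAS2 was not found by symbol). HBB had 1, 1 and 1 reads in cattle-yak, against 20, 22 and 1 in yak. HBA had 5, 1 and 0 reads in cattle-yak, against 20, 36 and 5 in yak, so in both genes yak 3 had as few reads as cattle-yak 1. In the 2 erythroid genes 17.4 and 37.3% of the reads lay in transcripts of the marker's name, and in the macrophage gene called CTSS, which rose, 53.4% did, so these are uncertain too. The adipocyte markers (171 to 226 CPM in cattle-yak, 200.2 to 249 CPM in yak), the endothelial ones (31.3 to 62.0 and 28.5 to 36.1 CPM), the smooth muscle ones (107 to 167 and 121 to 147 CPM) and the lymphocyte ones (1.93 to 12.6 and 1.32 to 5.85 CPM) overlapped between the groups, and the adipocyte genes ADIPOQ, PLIN1 and LEP were not found by symbol. Within these lists 1 of 3 adipocyte genes tested rose, CD36 (0.70 ± 0.17, adjusted p = 0.0165), and 1 of 4 endothelial genes, VWF (2.84 ± 0.67, adjusted p = 0.0148). The part of these other cell types in the results below was not tested. In bulk tissue, fewer cells of a type and less RNA per cell cannot be told apart.

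In cattle-yak muscle 12 of the 35 oxidation genes tested were lower than in yak muscle (34.3% fell) and none was higher, while 23 did not pass. Of all genes tested 5.06% fell and 4.92% rose, 9.98% in all. The 12 were PDHA1, DLAT and DLD of the pyruvate dehydrogenase complex, CS, SUCLA2, MDH1 and MDH2 of the citrate cycle, the transaminase GOT2, and BCKDHA, PCCB, HIBCH and HIBADH of branched-chain breakdown. Their log2 fold changes ran from -1.13 to -0.58. All cattle-yak libraries lay below all yak libraries for 17 members, where 14.6% of all genes did, and above them for 1, OGDH, where 15.2% of all genes did. The log2 fold change was below 0 for 33 of 35 members, against 47.3% of all genes, and the median was -0.50 for members and 0.04 for all genes tested. The members had smaller errors than most genes, with a median SE of 0.21 against 0.38. Read beside genes as abundant as themselves, a split chosen after the data were seen, 9 of the 21 members with at least 1000 pooled reads fell and none rose, against 13.5% and 6.59% of the 1169 genes of that abundance. At that abundance the log2 fold change of all 21 members was below 0, against 64.2% of genes, and the median was -0.51 for the members and -0.14 for the genes. At an unadjusted p under 0.05, 17 members were lower and 0 higher, where 12.4% and 12.7% of all genes were. DESeq2 called 9 members as lower and 0 as higher, against 3.90% and 3.47% of all genes. Without yak 3 or cattle-yak 2 the number that fell was 6, and without yak 2 it was 7. Of all genes 2.50%, 3.29% and 3.12% fell in these 3 fits, against 5.06% in the main test.

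**Figure D1:**
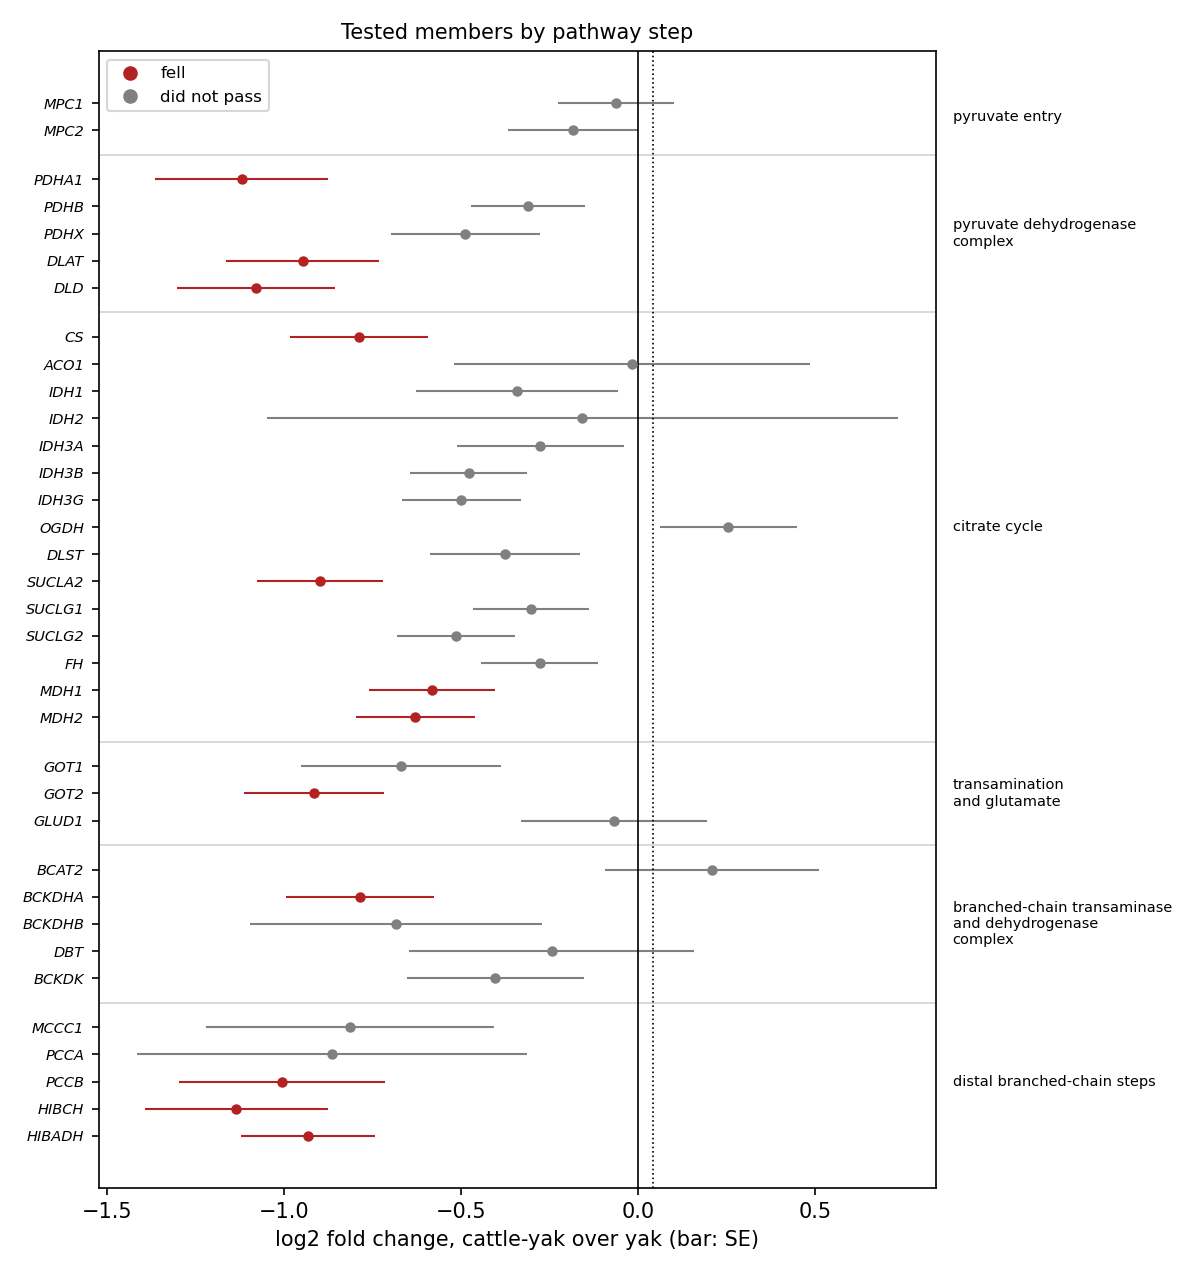
Log2 fold change of cattle-yak over yak (x axis) for the 35 tested members, grouped by pathway step. Points are edgeR estimates and bars 1 SE (n = 3 each), red where the gene fell and grey where it did not pass, and the dotted line is the median of all genes tested (0.04). The red points lie between -1.13 and -0.58, and OGDH and BCAT2 are the only points above 0.

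Summed over the tested members, the level was 6144 ± 757 CPM in cattle-yak, against 9143 ± 1094 CPM in yak (SD, n = 3 each), or 67.2% of the yak level. The sum was 5302 to 6768 CPM over the cattle-yak libraries and 7880 to 9801 CPM over the yak libraries, so the groups did not overlap. The skeletal muscle markers also summed lower in cattle-yak, to 125270 to 142810 CPM, against 191350 to 211320 CPM in yak, a sum that includes the uncertain gene called ACTA1. Whether the members fell relative to those muscle markers was not tested. MDH2 alone held 22.65% of the summed level of the tested members in cattle-yak and 23.55% in yak. Without MDH2 the cattle-yak sum over the tested members was 68.0% of that in yak. By step, the cattle-yak sum was 92.1% of the yak sum for the pyruvate carrier, 60.2% for the pyruvate dehydrogenase complex, 68.4% for the citrate cycle, 55.9% for transamination, 71.6% for the branched-chain transaminase and dehydrogenase genes and 51.3% for the distal branched-chain genes. The libraries within a group were not alike. Cattle-yak 2 was the lowest of the 6 libraries for 21 of the 35 members, and yak 3 the highest for 19. The median member stood at -0.48, -0.80 and -0.39 log2 units from the yak mean in cattle-yak 1, 2 and 3, and at -0.18, 0.03 and 0.12 in yak 1, 2 and 3.

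Neither subunit of the mitochondrial pyruvate carrier, MPC1 and MPC2, passed the test. MPC1 (ENSBGRG00000013665) had 330.3, 317 and 367 CPM in cattle-yak, against 308, 384 and 368 CPM in yak, and MPC2 had 303, 234 and 287 CPM in cattle-yak, against 247, 325 and 363 CPM in yak. Both overlapped between the groups, with log2 fold changes of -0.06 ± 0.16 (95% interval -0.41 to 0.28, adjusted p = 0.852) and -0.18 ± 0.18 (-0.57 to 0.20, adjusted p = 0.573). With library size alone as the scaling both turned above 0 (0.12 and 0.00620), and that scaling moved the median of all genes to 0.23. PC, the carboxylase that makes oxaloacetate from pyruvate, had 1, 1 and 3 reads in cattle-yak, against 4, 5 and 1 in yak, below the 30 pooled reads needed for the test.

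Within the pyruvate dehydrogenase complex, 3 of 5 genes fell. PDHA1, the catalytic α subunit of the first enzyme (E1) and the site at which the complex is phosphorylated, fell to 79.3 ± 15.5 CPM in cattle-yak, against 172 ± 62.4 CPM in yak (SD, n = 3 each). Its libraries gave 80.7, 63.2 and 94.0 CPM in cattle-yak, against 123, 242 and 152 CPM in yak. The highest cattle-yak library was below the lowest yak library, and yak 2 stood well above the other yak libraries. The log2 fold change of PDHA1 (ENSBGRG00000014128) was -1.12 ± 0.24 (adjusted p = 0.0119). DLAT, the acetyltransferase that forms the core of the complex (E2), had 76.1, 45.7 and 63.8 CPM in cattle-yak, against 92.0, 128 and 138 CPM in yak. The groups were apart and the log2 fold change was -0.95 ± 0.22 (adjusted p = 0.0117). DLD, the dihydrolipoamide dehydrogenase (E3) that this complex shares with the 2-oxoglutarate and branched-chain dehydrogenases, had 234, 132 and 220.2 CPM in cattle-yak, against 323, 492 and 425 CPM in yak. Cattle-yak 2 was the lowest library by a wide margin, but each cattle-yak library was below each yak library, and the log2 fold change was -1.08 ± 0.22 (adjusted p = 0.00743). PDHB, the β subunit that pairs with PDHA1, had 303, 256 and 328 CPM in cattle-yak, against 349, 374 and 377 CPM in yak, and PDHX, which anchors E3 to the core, had 101, 62.0 and 90.4 CPM in cattle-yak, against 92.0, 132 and 131 CPM in yak. PDHB was lower in every cattle-yak library and PDHX overlapped, and neither passed, with log2 fold changes of -0.31 ± 0.16 (adjusted p = 0.252) and -0.49 ± 0.21 (adjusted p = 0.159). The DLD call held in every fit tried, while that of PDHA1 was lost without cattle-yak 2 (adjusted p = 0.0516) and with assembled transcripts only (0.0803), and that of DLAT without yak 3 (0.0701). Over all fits tried the adjusted p was 8.57e-07 to 0.0803 for PDHA1 and 9.92e-05 to 0.0701 for DLAT.

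**Figure D2:**
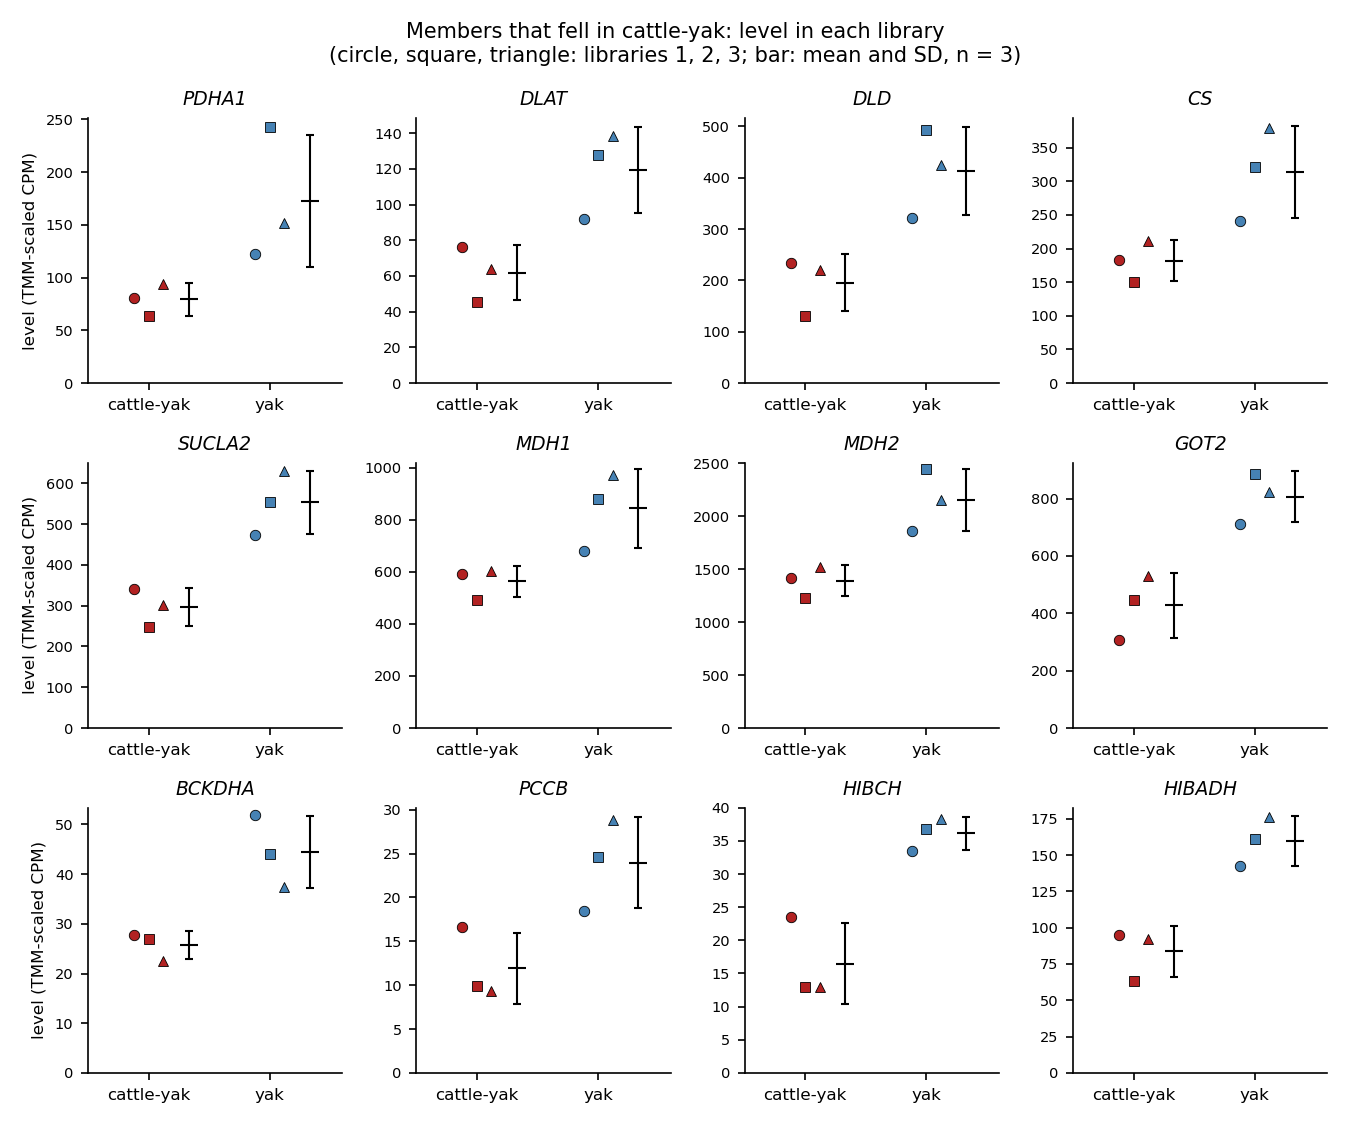
Level in TMM-scaled CPM (y axis, from 0) of the 12 members that fell, in each library of cattle-yak (red, left) and yak (blue, right). Circles, squares and triangles are libraries 1, 2 and 3, and bars show the mean and SD (n = 3). In every panel the highest red point lies below the lowest blue point, with the narrowest gap in PCCB (16.6 CPM in cattle-yak 1, against 18.5 CPM in yak 1).

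The kinases and phosphatases that switch the complex off and on were read beside it. Of 5 tested, 1 rose, none fell and 4 did not pass. PDK4, a kinase that phosphorylates E1 and inactivates it, and that muscle induces in fasting, had 1896, 1208 and 1043 CPM in cattle-yak, against 297, 277 and 396 CPM in yak. Every cattle-yak library was above every yak library, and PDK4 rose by 2.10 ± 0.23 on the log2 scale (adjusted p = 7.92e-05), in every fit tried. PDK2, the other main muscle kinase, had 25.1, 17.9 and 20.1 CPM in cattle-yak, against 31.2, 27.7 and 29.7 CPM in yak and did not pass (-0.49 ± 0.22, adjusted p = 0.185). The phosphatase PDP1, which reactivates the complex, had 16, 4 and 11 reads in cattle-yak, against 17, 25 and 23 in yak. Its log2 fold change of -1.29 ± 0.43 (adjusted p = 0.0687) did not pass, and it passed without cattle-yak 1 (0.0236) and without a filter on low counts (0.0301), within 0.0236 to 0.205 over all fits. The levels of PDK3 and PDPR overlapped between the groups.

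Of the 15 citrate cycle members, 4 fell and 11 did not pass, and 8 of the 15 were lower in every cattle-yak library. CS, citrate synthase, joins acetyl-CoA to oxaloacetate at the entrance of the cycle. It had 182, 151 and 212 CPM in cattle-yak, against 242, 322 and 379 CPM in yak. The groups were apart, and the log2 fold change was -0.79 ± 0.19 (adjusted p = 0.0178). SUCLA2, the ATP-forming β subunit of succinyl-CoA ligase, had 342, 247 and 302 CPM in cattle-yak, against 474, 554 and 631 CPM in yak. Its log2 fold change was -0.90 ± 0.18 (adjusted p = 0.00508), a call that held in every fit tried. The malate dehydrogenases make oxaloacetate from malate, MDH2 in the matrix and MDH1 in the cytosol. MDH2, the member with most reads, had 1420.5, 1231 and 1523 CPM in cattle-yak, against 1858, 2444 and 2157 CPM in yak. MDH1 had 593, 493 and 604 CPM in cattle-yak, against 679, 879 and 974 CPM in yak. For each of them the groups were apart, and the log2 fold change was -0.63 ± 0.17 (adjusted p = 0.0271) for MDH2 and -0.58 ± 0.18 (adjusted p = 0.0486) for MDH1. The MDH1 call lay at the threshold and was lost in 15 of 19 other fits, without cattle-yak 1 (0.0705), 2 (0.128) or 3 (0.0630) and without yak 2 (0.141) or 3 (0.217) among them, with adjusted p of 0.0122 to 0.474 over all. With assembled transcripts only the MDH1 log2 fold change was -0.24. The MDH2 call was lost without cattle-yak 1 (0.0542) or 2 (0.0731) and without yak 2 (0.132) or 3 (0.0912). It was also lost with library size alone (0.0762), reference transcripts only (0.110) and assembled transcripts only (0.0944). The CS call was lost without cattle-yak 2 (0.0576), yak 2 (0.0591) or yak 3 (0.113). Over all fits the adjusted p was 0.00366 to 0.132 for MDH2 and 5.23e-04 to 0.113 for CS.

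Among the cycle members that did not pass, SUCLG1 and IDH3B had most reads. SUCLG1, the α subunit common to both forms of succinyl-CoA ligase, had 532, 441 and 522 CPM in cattle-yak, against 547, 630.4 and 666 CPM in yak. IDH3B, a regulatory subunit of the NAD-dependent isocitrate dehydrogenase, had 297, 237 and 279 CPM in cattle-yak, against 334, 398 and 400.3 CPM in yak. Both were lower in every cattle-yak library, with log2 fold changes of -0.30 ± 0.16 (adjusted p = 0.274) and -0.48 ± 0.17 (adjusted p = 0.0798). Beyond the 2 with most reads, SUCLG2, the GTP-forming β subunit, and IDH3G, the other regulatory subunit of isocitrate dehydrogenase, are given for their small adjusted p, a choice made after their values were seen. SUCLG2 had 81.1, 77.6 and 79.3 CPM in cattle-yak, against 106, 111 and 123 CPM in yak, and IDH3G had 218, 169 and 213 CPM in cattle-yak, against 267, 270.1 and 310.2 CPM in yak. Their groups were apart, and their log2 fold changes were -0.51 ± 0.17 (adjusted p = 0.0624) and -0.50 ± 0.17 (adjusted p = 0.0716). The catalytic subunit IDH3A, the fumarase gene FH and DLST, the core of the 2-oxoglutarate dehydrogenase complex, overlapped between the groups, with log2 fold changes of -0.28, -0.28 and -0.37. OGDH, the first enzyme of that complex, was the exception among the members, with 52.5, 53.6 and 57.0 CPM in cattle-yak, against 52.4, 36.7 and 47.7 CPM in yak. It was higher in every cattle-yak library, though cattle-yak 1 and yak 1 were almost equal, and did not pass (0.25 ± 0.19, adjusted p = 0.447). IDH2, the NADP-dependent enzyme of the matrix, had the largest SE of the members and was picked out for it after its values were seen, with 30.5, 26.2 and 81.8 CPM in cattle-yak, against 106, 13.4 and 36.0 CPM in yak. No difference in IDH2 could be detected at this spread (95% interval of the log2 fold change -2.49 to 2.17). The cytosolic enzymes IDH1 and ACO1 overlapped as well (-0.34 ± 0.28 and -0.02 ± 0.50).

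Of 15 further genes of the cycle and of its feeding reactions that were tested, 2 fell, 1 rose and 12 did not pass. Succinate dehydrogenase, which serves both the cycle and the respiratory chain as complex II, gave unlike results for its subunits. SDHC, a membrane anchor, had 305, 209.6 and 305 CPM in cattle-yak, against 433, 548 and 584 CPM in yak. SDHA, the flavoprotein, had 465, 318 and 393 CPM in cattle-yak, against 547, 617 and 627 CPM in yak. Both fell, with log2 fold changes of -0.93 ± 0.19 (adjusted p = 0.00570) and -0.61 ± 0.17 (adjusted p = 0.0387), and the SDHC call held in every fit tried. SDHB, the iron-sulphur subunit, had 629.7, 527 and 510.4 CPM in cattle-yak, against 601, 570.0 and 607 CPM in yak. It overlapped between the groups (-0.09 ± 0.16, adjusted p = 0.766), while SDHD, the other anchor, was lower in every cattle-yak library but did not pass (-0.60 ± 0.20, adjusted p = 0.0637). ME2, the malic enzyme of the matrix, was lower in every cattle-yak library and did not pass (-0.82 ± 0.25, adjusted p = 0.0513). Of the reads of the gene called SDHA 50.9% lay in transcripts of that name, so its value is uncertain. With those alone the log2 fold change was -0.21 (adjusted p = 0.443), and with assembled transcripts only -0.33 (0.254). SDHA lost its call without every library except cattle-yak 1 (adjusted p up to 0.138, 0.0102 to 0.443 over all fits), SDHD passed without cattle-yak 1 (0.0326, 0.0119 to 0.740), and ME2 without cattle-yak 1 (0.0413) or 2 (0.0378, 0.00479 to 0.163). With library size alone (0.116) or a replicate block (0.0529) SDHA lost its call as well.

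The transaminases and the malate-aspartate shuttle move amino groups and reducing power across the inner membrane. Of the 3 members tested, 1 fell. GOT2, the mitochondrial aspartate transaminase, had 307, 447 and 529 CPM in cattle-yak, against 709.8, 885 and 824 CPM in yak. The groups were far apart, and GOT2 fell by 0.92 ± 0.20 on the log2 scale (adjusted p = 0.00851). With assembled transcripts only the GOT2 call was lost (log2 fold change -0.52, adjusted p = 0.126, 1.05e-05 to 0.126 over all fits). GOT1, its cytosolic partner, had 148, 88.6 and 187 CPM in cattle-yak, against 154, 259 and 262 CPM in yak. It overlapped between the groups and did not pass (-0.67 ± 0.28, adjusted p = 0.168). Without any filter on low counts it did pass (0.00679, within 0.00679 to 0.369 over all fits). GLUD1, glutamate dehydrogenase, had 18.9, 18.3 and 15.4 CPM in cattle-yak, against 13.6, 19.0 and 22.5 CPM in yak, with a log2 fold change of -0.07 ± 0.26 (adjusted p = 0.904). Only 32.8% of the reads of the gene called GLUD1 lay in transcripts of that name, so its value is uncertain.

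Both carriers of the shuttle that were tested fell. SLC25A12, the aspartate-glutamate carrier of muscle, had 78.8, 42.2 and 73.9 CPM in cattle-yak, against 162, 194 and 211 CPM in yak. SLC25A11, the carrier of 2-oxoglutarate and malate, had 158, 101 and 172 CPM in cattle-yak, against 225, 327 and 289 CPM in yak. In both the groups were apart, with log2 fold changes of -1.54 ± 0.22 (adjusted p = 5.51e-04) and -0.96 ± 0.21 (adjusted p = 0.00938). The SLC25A11 call was lost with assembled transcripts only (log2 fold change -0.55, adjusted p = 0.112, 1.48e-05 to 0.112 over all fits), and that of SLC25A12 held in every fit. GLUL, glutamine synthetase, which uses up glutamate and ammonia, went the other way, with 922, 669.9 and 1005 CPM in cattle-yak, against 255, 312 and 305 CPM in yak. It rose by 1.57 ± 0.19 on the log2 scale (adjusted p = 9.53e-05), and with reference transcripts only the adjusted p was 0.0518 (1.16e-12 to 0.0518 over all fits). The citrate carrier SLC25A1 did not pass (log2 fold change 0.47 ± 0.37, adjusted p = 0.467).

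Branched-chain breakdown opens with a transaminase and a dehydrogenase complex, of whose 5 tested members 1 fell. BCAT2, the mitochondrial branched-chain transaminase, had 13.1, 12.2 and 16.5 CPM in cattle-yak, against 9.24, 10.8 and 16.2 CPM in yak, overlapping between the groups (0.21 ± 0.30, adjusted p = 0.717). BCKDHA, the E1 α subunit of the branched-chain ketoacid dehydrogenase, had 27.8, 27.0 and 22.6 CPM in cattle-yak, against 51.9, 44.1 and 37.4 CPM in yak. The groups were apart and BCKDHA fell, with a log2 fold change of -0.78 ± 0.21 (adjusted p = 0.0268). Of the reads of this gene 34.8% lay in transcripts named BCKDHA, and with those alone the adjusted p was 0.213. BCKDK, the kinase that inactivates the complex, had 18.9, 16.4 and 15.8 CPM in cattle-yak, against 25.1, 17.3 and 25.2 CPM in yak and did not pass (-0.40 ± 0.25, adjusted p = 0.344). BCKDHB and DBT, the E1 β subunit and the E2 core, had 137 and 108 pooled reads and overlapped (-0.68 ± 0.41 and -0.24 ± 0.40). The BCKDHA call was lost without cattle-yak 2 (0.0514) or 3 (0.0966) and without yak 1 (0.116) or 2 (0.0723), and over all fits its adjusted p was 0.0128 to 0.213. It was also lost with library size alone (0.093), DESeq2 (0.0567), reference transcripts only (0.139) and assembled transcripts only (0.131).

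PPM1K, the phosphatase that reactivates the branched-chain dehydrogenase, had the largest change in size among the tested genes of these pathways. It had 5, 5 and 3 reads in cattle-yak, against 28, 40 and 36 in yak, or 1.93, 1.90 and 1.08 CPM in cattle-yak, against 12.3, 17.3 and 16.2 CPM in yak. The highest cattle-yak library had 5 reads and the lowest yak library 28. PPM1K fell to 1.64 ± 0.486 CPM in cattle-yak, against 15.3 ± 2.61 CPM in yak (SD, n = 3 each), with a log2 fold change of -3.19 ± 0.39 (adjusted p = 1.26e-04), and the call held in every fit tried. SLC25A44, the mitochondrial carrier of branched-chain amino acids, was higher in every cattle-yak library but did not pass, with 21, 20 and 25 reads in cattle-yak, against 14, 15 and 12 in yak (0.45 ± 0.33, adjusted p = 0.432), and 53.3% of its reads lay in transcripts of that name.

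Of the 5 distal members tested, 3 fell. HIBCH removes CoA from 3-hydroxyisobutyryl-CoA in valine breakdown, and it had 23.6, 12.9 and 12.9 CPM in cattle-yak, against 33.4, 36.7 and 38.3 CPM in yak. HIBADH, the dehydrogenase of the next valine step, had 95.03, 63.5 and 92.5 CPM in cattle-yak, against 142, 161 and 177 CPM in yak. The groups were apart for both, with log2 fold changes of -1.13 ± 0.26 (adjusted p = 0.0114) and -0.93 ± 0.19 (adjusted p = 0.00594). PCCB, the β subunit of propionyl-CoA carboxylase, which carries isoleucine and valine carbon towards succinyl-CoA, had 16.6, 9.89 and 9.33 CPM in cattle-yak, against 18.5, 24.6 and 28.8 CPM in yak. The nearest libraries, cattle-yak 1 and yak 1, were close, and the log2 fold change was -1.01 ± 0.29 (adjusted p = 0.0394). PCCA, its biotin-bearing α subunit, had 6, 3 and 5 reads in cattle-yak, against 8, 9 and 5 in yak, too few to place (-0.86 ± 0.55, adjusted p = 0.360). MCCC1, a carboxylase subunit of leucine breakdown, had 2.70, 4.95 and 9.68 CPM in cattle-yak, against 12.3, 9.51 and 9.01 CPM in yak, overlapping through cattle-yak 3 (-0.81 ± 0.41, adjusted p = 0.229). IVD and MCCC2, of leucine breakdown, were not found by symbol and are not analysed here. HIBADH held its call in every fit, that of HIBCH was lost without yak 3 (0.0522) and with assembled transcripts only (log2 fold change -0.71, 3.00e-04 to 0.369 over all fits), and that of PCCB without cattle-yak 2 (0.113) or 3 (0.125) and without yak 2 (0.107) or 3 (0.173, 0.00786 to 0.173). The PCCB call was also lost with library size alone (0.093), a mean of at least 10 CPM (0.0525), DESeq2 (0.070) and a replicate block (0.0527).

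Of 14 other branched-chain genes tested, 6 fell, PPM1K included, none rose and 8 did not pass. ACADSB, the acyl-CoA dehydrogenase of isoleucine, had 61.4, 52.9 and 43.8 CPM in cattle-yak, against 143, 88.6 and 105 CPM in yak. ALDH6A1, which makes propionyl-CoA from valine carbon, had 16.2, 18.3 and 17.6 CPM in cattle-yak, against 36.1, 27.7 and 42.3 CPM in yak. MMUT, the mutase that makes succinyl-CoA, had 29.0, 28.2 and 21.9 CPM in cattle-yak, against 48.0, 46.2 and 73.4 CPM in yak. In these 3 genes every cattle-yak library was below every yak library, with log2 fold changes of -1.09 ± 0.21 (adjusted p = 0.00421), -1.02 ± 0.23 (adjusted p = 0.0111) and -1.08 ± 0.23 (adjusted p = 0.00698). MCEE, the epimerase that precedes MMUT, fell with -0.73 ± 0.21 (adjusted p = 0.0386). HMGCS1, a cytosolic synthase listed beside ketone genes and known for cholesterol synthesis, fell with -1.18 ± 0.32 (adjusted p = 0.0298). ACAD8, of valine, was higher in every cattle-yak library but had 10, 9 and 10 reads in cattle-yak, against 1, 3 and 4 in yak, and did not pass (1.58 ± 0.59, adjusted p = 0.107). AUH of leucine breakdown and the hydratase ECHS1 did not pass either (adjusted p = 0.140 and 0.232). The ACADSB call held in every fit, those of MMUT (0.0593) and ALDH6A1 (0.0745) were lost without yak 3, that of MCEE without each of the 6 libraries (up to 0.130), and that of HMGCS1 without cattle-yak 2, cattle-yak 3, yak 2 or yak 3 (up to 0.169). Over all fits the adjusted p was 7.61e-05 to 0.0593 for MMUT, 0.00135 to 0.0999 for ALDH6A1, 0.0382 to 0.337 for MCEE and 0.00292 to 0.169 for HMGCS1. The MCEE call was lost in 12 of 19 other fits, that of HMGCS1 in 5 of 18 and that of ALDH6A1 in 2 of 19. With reference transcripts only the log2 fold change was -1.61 for ALDH6A1 and -0.40 for MCEE.

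**Figure D3:**
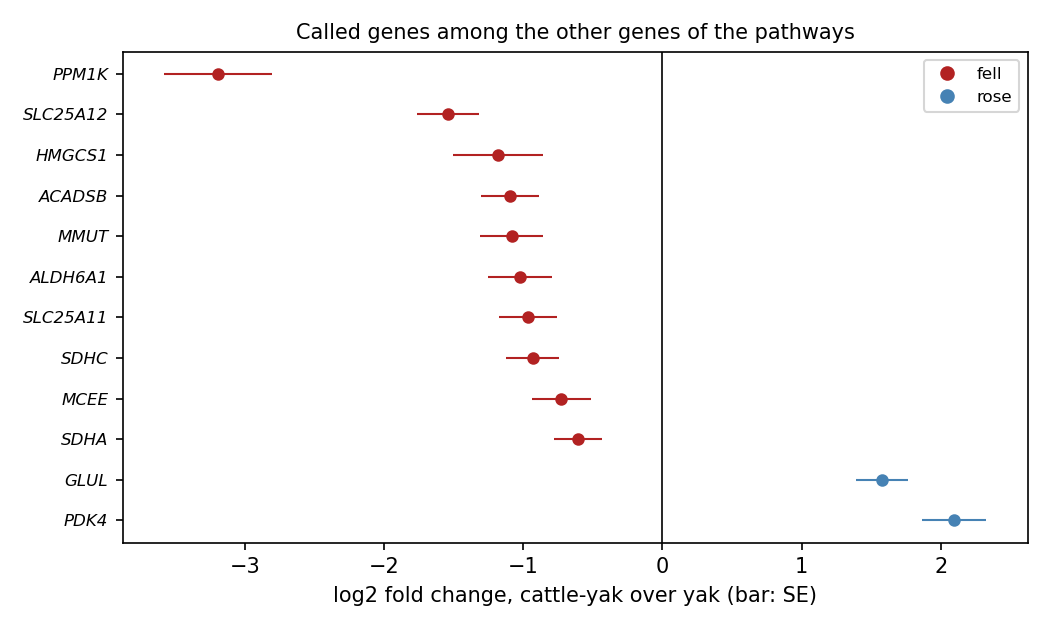
Log2 fold change of cattle-yak over yak (x axis, points with bars of 1 SE, n = 3 each) for the 12 called genes among the other genes of these pathways, red where they fell and blue where they rose. PPM1K lies lowest at -3.19 and the 2 genes that rose, GLUL and PDK4, lie at 1.57 and 2.10.

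In all, 43 of the 64 other genes listed for these pathways were tested, of which 10 fell (23.3%), 2 rose (4.65%) and 31 did not pass. Of all genes tested 5.06% fell and 4.92% rose, so the share that rose was near that of all genes. Among genes with at least 1000 pooled reads 13.5% fell and 6.59% rose. The mitochondrial regulators among the other pathway genes, none of which passed, had too few reads for a close comparison. PPARGC1A, a coactivator of mitochondrial genes, had 33, 13 and 13 reads in cattle-yak, against 20, 34 and 29 in yak (-0.71 ± 0.40, adjusted p = 0.288), and passed without cattle-yak 1 (0.0368, 0.0163 to 0.848 over all fits). TFAM, a mitochondrial transcription factor, had 27, 25 and 30 reads in cattle-yak, against 22, 50 and 41 in yak (-0.69 ± 0.32, adjusted p = 0.189). ESRRA, the nuclear receptor that partners PPARGC1A, was higher in every cattle-yak library on 8, 9 and 9 reads in cattle-yak, against 3, 5 and 5 in yak, and did not pass (0.75 ± 0.53, adjusted p = 0.407). Of the lipoylation genes, which attach the cofactor of the dehydrogenase cores, LIAS alone was tested and did not pass (-0.53 ± 0.27, adjusted p = 0.232).

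Ratios of 2 genes within a library do not depend on the scaling between libraries, and 9 of the 10 listed could be computed. PDK4 over PDHA1, an inhibitor against its target, had log2 ratios of 4.55, 4.25 and 3.47 in cattle-yak, against 1.27, 0.19 and 1.38 in yak. The groups were apart by more than their spread, with a difference of means of 3.14. SUCLA2 over SUCLG2, the ATP-forming against the GTP-forming subunit, had 2.07, 1.67 and 1.93 in cattle-yak, against 2.15, 2.32 and 2.36 in yak, a difference of -0.39. PDHX over DLAT, 2 partners of the complex core, had 0.41, 0.44 and 0.50 in cattle-yak, against 0.00, 0.04 and -0.07 in yak, a difference of 0.46. These 3 ratios did not overlap between the groups, and each had an exact permutation p of 0.1 (two-sided), the smallest that 3 against 3 allows, or 0.3 adjusted over the 9. The other 6 ratios overlapped, with exact permutation p of 0.2 to 0.9. MDH1 over MDH2 differed by 0.05 and GOT1 over GOT2 by 0.25, each less than the spread within a group, and the signs of both turned when 1 library was left out. BCKDK over BCKDHA, the branched-chain counterpart of the kinase ratio, differed by 0.39 and overlapped between the groups.

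**Figure D4:**
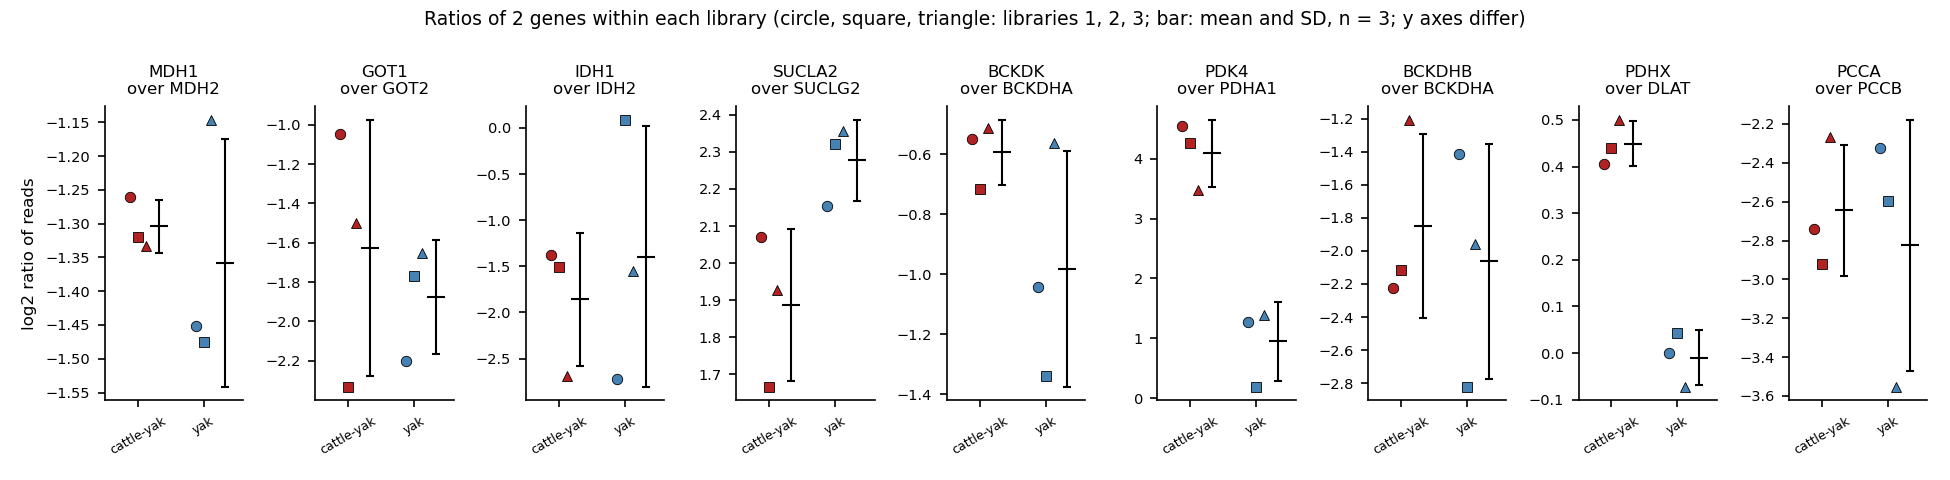
Log2 ratio of the reads of 2 genes in each library (y axes differ between panels) for the 9 ratios, cattle-yak in red on the left and yak in blue on the right. Symbols are libraries 1, 2 and 3 (circle, square, triangle) and bars the mean and SD (n = 3), and the groups are apart in 3 panels, SUCLA2 over SUCLG2, PDK4 over PDHA1 and PDHX over DLAT.

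The long reads allow single transcripts to be counted. The tested members had 1155 transcripts in all, 7 to 114 each, of which 237 in 33 members had at least 30 pooled reads. Of these, 31 fell (13.1%), 1 rose and 205 did not pass, where 6.27% of all 27036 transcripts tested fell and 6.52% rose. Transcripts that fell lay in 18 members, 25 of them in members that fell and 6 in IDH3B, PDHB, FH, SUCLG2, IDH3G and IDH3A, which did not pass as genes. For 16 of the 33 members the transcript with most reads fell, where 5.83% of the 8907 such transcripts over all genes did. Of 25 tested member transcripts with a reference identifier 12 fell, against 8.47% of all 2232. The main MDH2 transcript (ENSBGRT00000015718, 78.8% of the gene's reads) had 1092, 961 and 1203 CPM in cattle-yak, against 1511, 1916 and 1672 CPM in yak, a log2 fold change of -0.65 ± 0.16 (adjusted p = 0.0147). That of GOT2 (ENSBGRT00000021705) had 208, 307 and 364 CPM in cattle-yak, against 539, 666 and 614 CPM in yak, a log2 fold change of -1.05 ± 0.20 (adjusted p = 0.00228). In both every cattle-yak library was below every yak library. The main transcripts of MDH1 (ENSBGRT00000018825, -0.62 ± 0.18, adjusted p = 0.0276), IDH3B (ENSBGRT00000026470, -0.62 ± 0.18, adjusted p = 0.0275), DLD (TALONT000850076, -1.22 ± 0.24, adjusted p = 0.00388), CS (TALONT001181847, -0.79 ± 0.21, adjusted p = 0.0184) and SUCLA2 (ENSBGRT00000038375, -1.10 ± 0.20, adjusted p = 0.00181) fell as well. Those of DLD and CS are assembled from the reads and carry no reference identifier. The DLAT transcript that rose (TALONT000386280), named because it was the only one, had 13, 9 and 18 reads in cattle-yak, against 4, 2 and 5 in yak (1.62 ± 0.52, adjusted p = 0.0489). Without cattle-yak 2, yak 1, yak 2 or yak 3 the member transcripts that fell numbered 13, 20, 10 and 16. The shares of all transcripts that fell in those fits are not given here, so the lower counts cannot be read as particular to the members. The main transcripts of GOT2, DLD and SUCLA2 kept their calls without each library. That of MDH2 lost its call without cattle-yak 2 (0.0583) or yak 2 (0.0913), that of MDH1 without cattle-yak 2, yak 2 or yak 3 (up to 0.135), that of IDH3B without cattle-yak 2, yak 1, yak 2 or yak 3 (up to 0.101) and that of CS without cattle-yak 1, cattle-yak 2, yak 2 or yak 3 (up to 0.112). The DLAT transcript lost its call without 5 of the 6 libraries, all but cattle-yak 2, with adjusted p up to 0.173 without yak 2.

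Whether the mix of transcripts within a gene differed was tested for 16 members with at least 2 transcripts of 5% or more of the gene's reads. Usage was called in 0 of them by edgeR, where 5.38% of 2863 genes were called. At an unadjusted p under 0.05 there were 6 of the 16, against 18.9% of those genes, and the Simes method called 0, against 1.71%. The smallest p was that of PDHB (adjusted p = 0.0590), and its transcripts and those of GOT2 and SUCLG2 below were chosen after their values were seen. The reference transcript of PDHB (ENSBGRT00000048605) held 48.8, 22.3 and 26.4% of the gene's reads in cattle-yak, against 50.1, 52.1 and 47.9% in yak. An assembled PDHB transcript (TALONT000632016) held 23.8, 48.7 and 50.2% of the gene's reads in cattle-yak, against 24.9, 20 and 25.2% in yak. Cattle-yak 1 lay with the yak libraries in both, while in cattle-yak 2 and 3 the assembled transcript exceeded the reference one. The reference transcript alone fell (-0.89 ± 0.27, adjusted p = 0.0466), a call lost without any single library but cattle-yak 1 (adjusted p up to 0.171 without cattle-yak 3), whereas PDHB as a gene did not pass. Without cattle-yak 1, 1 member was called for usage, and with no minimum share 9 were. The shares of all genes called in those fits are not given here, so these counts cannot be read as particular to the members.

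The share of member reads in reference transcripts was lower in each cattle-yak library than in any yak library. Over the 35 tested members, 56.4, 53.7 and 55.8% of reads lay in transcripts with a reference identifier in cattle-yak, against 60.05, 59.7 and 59.5% in yak. Over all genes the share was 24.4, 22.3 and 24.6% in cattle-yak, against 24.2, 24.5 and 23.9% in yak, and the groups overlapped. Of the 22 members whose share was between 5 and 95%, 14 had a lower share in every cattle-yak library and 1, MPC2, a higher one, where 16.6% and 3.99% of 2529 such genes did. With at least 1000 pooled reads, 12 of 16 members had a lower share in every cattle-yak library and 1 a higher one, against 32.8% and 5.90% of 458 such genes. In SUCLG2 the share was 59.0, 60.8 and 60.2% in cattle-yak, against 71.1, 70.7 and 71.4% in yak. In GOT2 it was 68.1, 66.3 and 68.3% in cattle-yak, against 75.7, 76.3 and 76.1% in yak. Within each group these shares varied by less than 3 points, and the groups were apart. Reads of a cattle allele assembled as a transcript of its own and a change of isoform cannot be told apart in these counts.

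**Figure D5:**
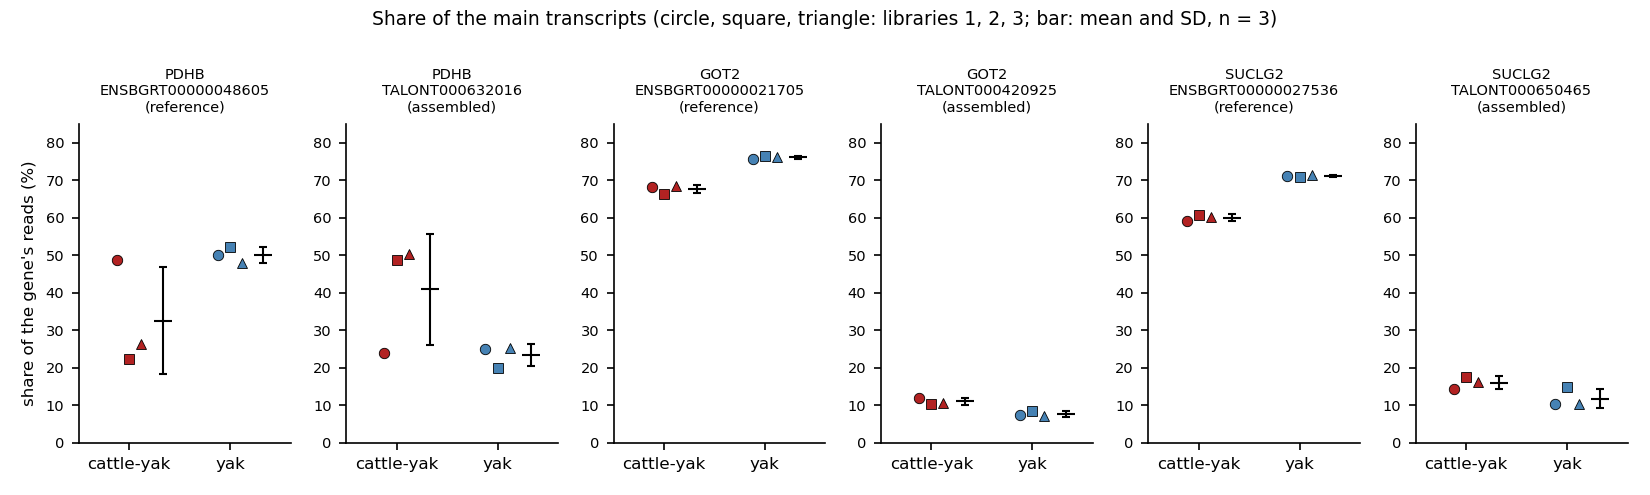
Share of the gene's reads (y axis, percent, from 0) held by a reference and an assembled transcript of PDHB, GOT2 and SUCLG2 in each library, cattle-yak in red on the left and yak in blue on the right. Symbols are libraries 1, 2 and 3 (circle, square, triangle) and bars the mean and SD (n = 3), and the reference transcripts of GOT2 and SUCLG2 hold less in every cattle-yak library while PDHB differs in cattle-yak 2 and 3 only.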

How the data were processed

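Per the labels' protocols, TRIzol RNA of each muscle sample (1 µg) was made into a nanopore cDNA-PCR library. The tools fastp, minimap2 and GSNAP appear without version or role in the submitters' processing notes. Build, annotation and counting software were not given in the sources used here. Raw counts of reads per transcript were deposited, with the authors' CPM beside them, which equal those counts scaled to the library total (within 0.005). Only the counts were used. Of 179856 transcripts, 6986 had a reference identifier, 61 without a gene identifier (at most 0.00249% of a library) were left out, and 132 lines of overflowing annotation held no values.

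The members and lists were chosen with earlier results of these data known. Counts summed by gene identifier were tested for cattle-yak over yak with edgeR 4.0.16 in R 4.3.3 (at least 30 pooled reads, TMM, robust quasi-likelihood, no covariate). SE is the log2 fold change over the square root of F. Transcripts were tested likewise, and usage with diffSpliceDGE (transcripts of at least 30 reads and 5% of the gene). Ratios (0.5 reads added) were compared by exact permutation. Alternatives were other scalings, filters, gene totals and tools (DESeq2 1.42.0, limma-voom 3.58.1), leaving out each library, and a replicate block. No duplicate libraries were found (chi-square over degrees of freedom of 7.29 to 12.4 within groups). In simulations with 1 common dispersion, calls were made for 43% and 96% of genes (3.47% false) and for 10% and 89% of transcripts (5.71% false) shifted by 1 and 2 log2 units. The usage test found 100% of 100 genes whose main transcript was lowered by 2 units, with the lost reads added to the second transcript (13.0% false). Both transcripts had at least 100 pooled reads, so weaker changes and rarer transcripts were not simulated.

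Named were all members that fell, up to 2 others per step with most reads, all called genes of the other lists, uncalled ones by role, and up to 8 called transcripts. A few genes named by this rule are not reported here. Reads are not unique molecules, and gene copies can share them. Python 3.11.15, pandas 2.3.3, scipy 1.17.1 and matplotlib 3.10.9 served for tables and figures.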

Additional observations from a re-analysis of the deposited data

How the results depend on the processing

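Across 19 other fits, or as many as each gene could enter, none of 224 values of the 12 fallen members changed direction and 48 lost the call. DLD, SUCLA2 and HIBADH kept it in every fit, and with GOT2 added also without each library. No fit called a member as higher. The members that fell numbered 5 with reference transcripts only and 6 with assembled transcripts only, fits that use only part of the reads. CS, DLD, DLAT and PCCB had 0.19, 0.02, 0 and 0.39% of their reads in reference transcripts. These 4 were too low to be tested with reference transcripts only. Without 1 library 6 to 11 members fell (12 in the main test). Over all genes, those that fell and rose numbered 102 and 86 with reference transcripts only, which leaves 2125 genes, and 260 to 500 and 267 to 551 without 1 library. Those that fell numbered 315 with library size alone, 339 with a mean of at least 10 CPM and 348 with transcripts of the gene's own symbol only, and 313 rose with limma-voom. With library size alone 750 genes rose, and the median change over all genes was 0.23 log2 units, against 0.04 with TMM. Member transcripts that fell numbered 17 with library size alone and 10 to 29 without 1 library, and those that rose 0 with filterByExpr and 0 to 1 without 1 library. For transcripts the shares over all features are given for the main test only. Usage was called in 9 members with no minimum share, and in 0 to 1 without 1 library. For usage the share of all genes called is given for the main test only. The cause of these shifts was not tested. Of 422 values of members that did not pass, 29 changed direction, as did 4 of other pathway genes, in log2 units: with library size alone MPC1 0.12, MPC2 0.0062, ACO1 0.16, GLUD1 0.13, SDHB 0.0972, with filterByExpr ACO1 0.0209, with a mean of at least 10 CPM MPC1 0.0129, GLUD1 0.0109, with limma-voom ACO1 0.16, IDH2 0.13, by symbol ACO1 0.24, own symbol only MPC1 0.0154, ACO1 0.0538, reference only MPC2 0.0994, SDHB 0.0871, SDHD 0.33, PPARGC1A 0.23 and assembled only PDHB 0.0743, IDH1 0.0864, IDH2 0.21. The rest turned without 1 library, with the values over those fits running from -0.15 to 0.0015 for MPC1, -0.44 to 0.47 for ACO1, -0.86 to 0.91 for IDH2, -0.24 to 0.10 for GLUD1 and -0.56 to 0.19 for DBT. Ratio differences that changed sign without 1 library ran from -0.005 to 0.16 (MDH1 over MDH2), -0.0401 to 0.60 (GOT1 over GOT2), -1.13 to 0.28 (IDH1 over IDH2), -0.16 to 0.54 (BCKDHB over BCKDHA) and -0.18 to 0.43 (PCCA over PCCB). Library numbers are shared between the groups, but same-numbered libraries did not deviate together (correlations of -0.04, -0.01 and 0.01). These correlations gave no sign of a pairing, though they cannot exclude one. With a replicate block 10 members fell and 0 rose, over all genes 504 fell and 507 rose, 26 member transcripts fell and 0 rose, and ACO1 0.0521 and IDH2 0.0807 turned positive. Depth limits the rarest members (SE of 0.55 for PCCA with 36 reads), and 3 libraries a group limit every comparison.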
